A study of Mus musculus with 84 samples.

Results

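Rab GTPases were followed in 84 single neurons of the mouse cortex. The genes were chosen by name alone: every row of the deposited count table whose symbol was Rab, a number and at most a letter from a to d. That gave 56 of the 19685 genes in the table. No measured value entered this rule, though it was set with earlier results of these data known. All 84 neurons came from mice of the strain C57/BL6/N, from acute, untreated slices that held prefrontal cortex, and each was drawn into a patch-clamp pipette before its polyadenylated RNA was amplified by the aRNA procedure (repeated copying by in vitro transcription). The titles mark 25 neurons with the letter F and 59 with the letter P. Pyramidal and fast-spiking neurons are named in the series title, but the labels give no meaning for either letter, and the neurons are named F cells and P cells here. No label gives an animal, its age or its sex, so each group counts as 1 sample. No p-value was computed for any difference, and SDs describe the spread over cells.

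Rab proteins are small GTPases that give membranes their identity and steer vesicle traffic. A Rab is switched on by an exchange factor that loads GTP, recruits effectors such as tethers and motors while GTP is bound, and is switched off by a GTPase-activating protein. It holds to the membrane through prenyl groups on cysteines near its carboxyl end, and GDP dissociation inhibitors take the inactive form back into the cytosol. In neurons, Rab3 and Rab27 proteins act on synaptic and dense-core vesicles, Rab5 on early endosomes, Rab4 and Rab11 on recycling, Rab7 on late endosomes, and Rab1, Rab2 and Rab6 between the endoplasmic reticulum and the Golgi.

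The prenylated cysteines are encoded near the end of the open reading frame. The last 60 coding bases, stop codon excluded, are shown for the members on which the comparisons below turn, with paralogs next to each other so that their letters can be compared. Cysteine codons (TGT or TGC, in frame) are in capitals. The sequences are from the GENCODE vM21 transcripts on GRCm38, 5′ to 3′ on the coding strand, and each lies within 1 exon.
Rab3a: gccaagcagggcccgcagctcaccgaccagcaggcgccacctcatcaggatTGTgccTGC
Rab3b: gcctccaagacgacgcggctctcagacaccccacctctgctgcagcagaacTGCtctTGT
Rab3c: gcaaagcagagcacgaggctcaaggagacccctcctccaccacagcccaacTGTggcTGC
Rab6a: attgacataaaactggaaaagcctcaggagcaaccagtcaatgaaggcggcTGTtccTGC
Rab6b: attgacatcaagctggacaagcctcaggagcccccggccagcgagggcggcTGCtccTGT
Rab26: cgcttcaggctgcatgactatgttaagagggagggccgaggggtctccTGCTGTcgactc
Rab40b: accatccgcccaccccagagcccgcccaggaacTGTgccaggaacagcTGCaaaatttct
Rab9: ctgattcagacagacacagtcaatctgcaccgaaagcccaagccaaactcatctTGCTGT
Rab33b: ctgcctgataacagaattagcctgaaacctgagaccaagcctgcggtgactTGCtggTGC
Rab11a: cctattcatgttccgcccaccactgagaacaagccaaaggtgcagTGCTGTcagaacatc
Rab11b: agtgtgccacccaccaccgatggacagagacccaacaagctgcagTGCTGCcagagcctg
These stretches lie at chr8:70758026-70758085 on the plus strand for Rab3a, at chr4:108940751-108940810 on the plus strand for Rab3b and at chr13:110061818-110061877 on the minus strand for Rab3c. They lie at chr7:100639257-100639316 on the plus strand for Rab6a, at chr9:103181184-103181243 on the plus strand for Rab6b and at chr17:24529544-24529603 on the minus strand for Rab26. For Rab40b the stretch is at chr11:121357040-121357099 on the minus strand, for Rab9 at chrX:166457711-166457770 on the minus strand and for Rab33b at chr3:51493734-51493793 on the plus strand. For Rab11a it is at chr9:64716852-64716911 on the minus strand and for Rab11b at chr17:33747671-33747730 on the minus strand.

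Of the 54 members whose tail was read, 32 had 2 cysteine codons with one of them the last codon, as Rab3a, Rab6a, Rab9 and Rab33b do. Counted back from 1 at the last codon, the final cysteine codon was number 3 in Rab26 and number 4 in Rab11a, Rab11b and Rab40b. Among 1540 pairs of members, 1 pair, Rab4b and Rab11b, shared any run of 50 identical bases in its annotated transcripts. It shared 21 such runs, counted from every start position, so they can overlap within 1 longer stretch. Exons of Rab26 overlap exons of Traf7 on the same strand. Exons of Rab2b, Rab3a, Rab5a, Rab6a, Rab7 and Rab24 overlap a gene of the table on the opposite strand. A strand setting for the counting was not given in the sources used here. Reads that fall on the overlapping bases could therefore have been counted for either gene or for neither.

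Cell totals ran from 19802 to 16251900 counts in P cells and from 36594 to 12043600 in F cells. The F libraries numbered 13 to 28 stood apart. All 16 of them held Klhl18, Celsr1 and Pno1 together at 2 counts or more apiece, which none of the other 68 cells did. Their median total was 246319 counts, against 2707090 in the other 9 F cells and 2706400 in P cells. The 15 markers of GABAergic neurons, all with a count in F cells and 14 in P cells (Dlx6 at 0), had a median summed level of 5634 CPM in the other 9 F cells, range 1667 to 19259, 139.5 CPM in the 16 libraries (2.53 to 17717) and 12.8 CPM in P cells (0 to 11138), where CPM is counts per 1000000 counts of a cell. Erbb4 and Pvalb were among the markers at 0 in the 16. The 14 glutamatergic markers all had a count in both groups, with a median of 3631 CPM in P cells (0 to 31882) and 179.6 CPM in F cells (4.66 to 2653). Their median was 106.8 CPM in the other 9 F cells (8.47 to 1763) and 217.1 CPM in the 16 (4.66 to 2653). By median the 16 were thus higher on the glutamatergic than on the GABAergic list. Means gave the opposite order in the 16, with 591 CPM for the glutamatergic and 4440 CPM for the GABAergic list. The type of neuron in the 16 libraries was not tested. Of 10 astrocyte markers, 10 had a count in P cells, with a median of 555 CPM (0 to 100047), and 9 in F cells (Aldh1l1 at 0), with 42.5 CPM (0 to 18447). Medians of the oligodendrocyte, microglia and endothelial lists were 27.3, 5.83 and 0 CPM in F and 12.4, 9.25 and 0.261 CPM in P cells. By median the oligodendrocyte list was higher in the other 9 F cells, at 381 CPM (0.424 to 3387), than in the 16, at 19 CPM (0 to 21411). Of its 11 markers, 10 had a count in the 9 (Sox10 at 0) and 9 in the 16 (Mog and Cnp at 0). By mean the order turned, with 850 CPM in the 9 and 1874 in the 16. The 10 microglia markers all had a count in each set. Their sum reached 25725 CPM in the 16, 1116 in the 9 and 17943 in P cells, with means of 3047, 135 and 1646 CPM. The part of such RNA in the Rab values was not tested. Because of the 16 libraries, the counts over lists, and the members described in full, are given with and without them.

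Rab transcripts were found in 83 of the 84 cells. A P cell held a median of 14 different Rab genes with at least 1 count, range 0 to 40, and an F cell 8, range 2 to 39. The 16 libraries had a median of 7 Rab genes and the other 9 F cells 20, so the order of F and P depended on which F cells were taken. With each cell thinned to the same total of 86539 counts, 22 F cells had a median of 5.5 and 53 P cells of 7, with 10 in the 9 and 5 in 13 of the 16. The genes of any kind found still differed after thinning, with medians of 1114 in F, 1596 in P and 1777 in the 9.

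The number of Rab genes followed the number of genes of any kind. Spearman's rho between them was 0.90 over the 84 cells and 0.85 over the 75 thinned cells, given as a description because both counts come from the same library. Rab genes made up a median of 0.406% of the genes found in an F cell and 0.407% in a P cell. The summed Rab level had a median of 3320.3 CPM in F cells, range 24.6 to 8634, and 3187 CPM in P cells, range 0 to 21102. It was 5249.7 CPM in the other 9 F cells, range 1902 to 7682, and 1335 CPM in the 16.

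**Figure D1:**
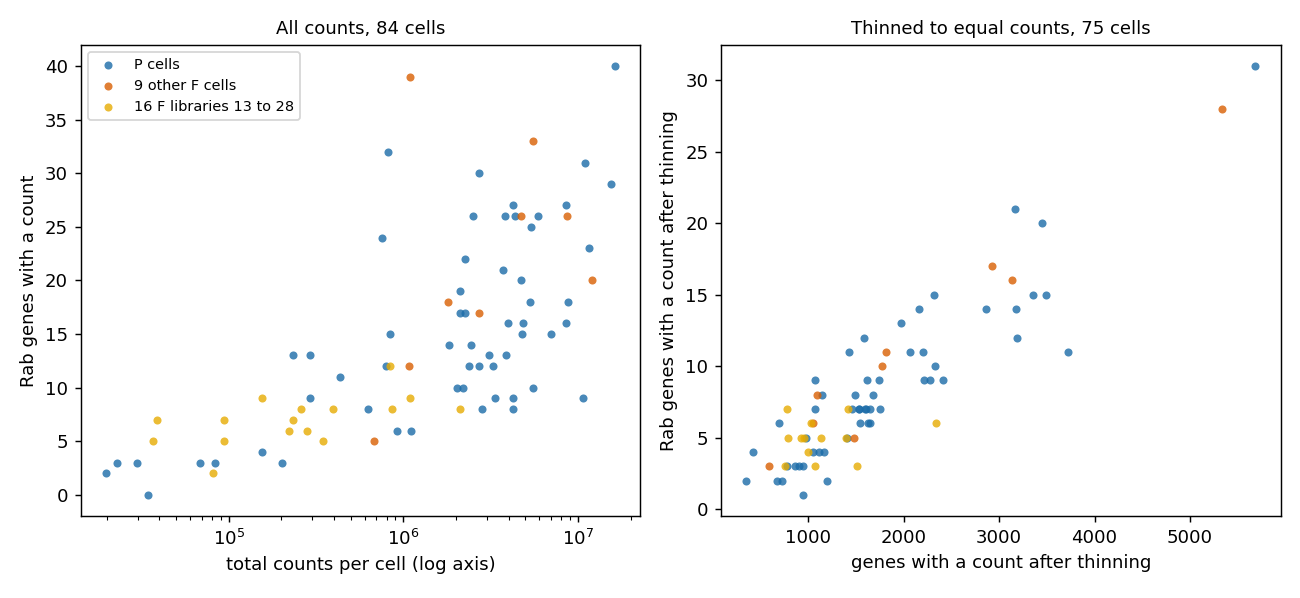
Rab genes with a count in each cell against its total counts (left, log axis, 84 cells) and against all genes with a count after thinning to 86539 counts (right, 75 cells), with each dot a cell. The 16 F libraries lie between 2 and 12 Rab genes, and the other 9 F cells lie within the spread of the P cells.

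Most of a neuron's Rab counts came from few members. The leading member held a median of 45.9% of a P cell's summed Rab level and 55.8% of an F cell's. Rab6b, the Rab6 paralog enriched in neurons, led in 10 P cells and in 6 F cells, 5 of them among the other 9. Rab14 led in 9 P and 3 F cells, Rab2a in 7 P cells, Rab1 in 6 and Rab6a in 5. In the 16 libraries no member led in more than 3 cells, a count reached by Rab12 and Rab26.

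**Figure D2:**
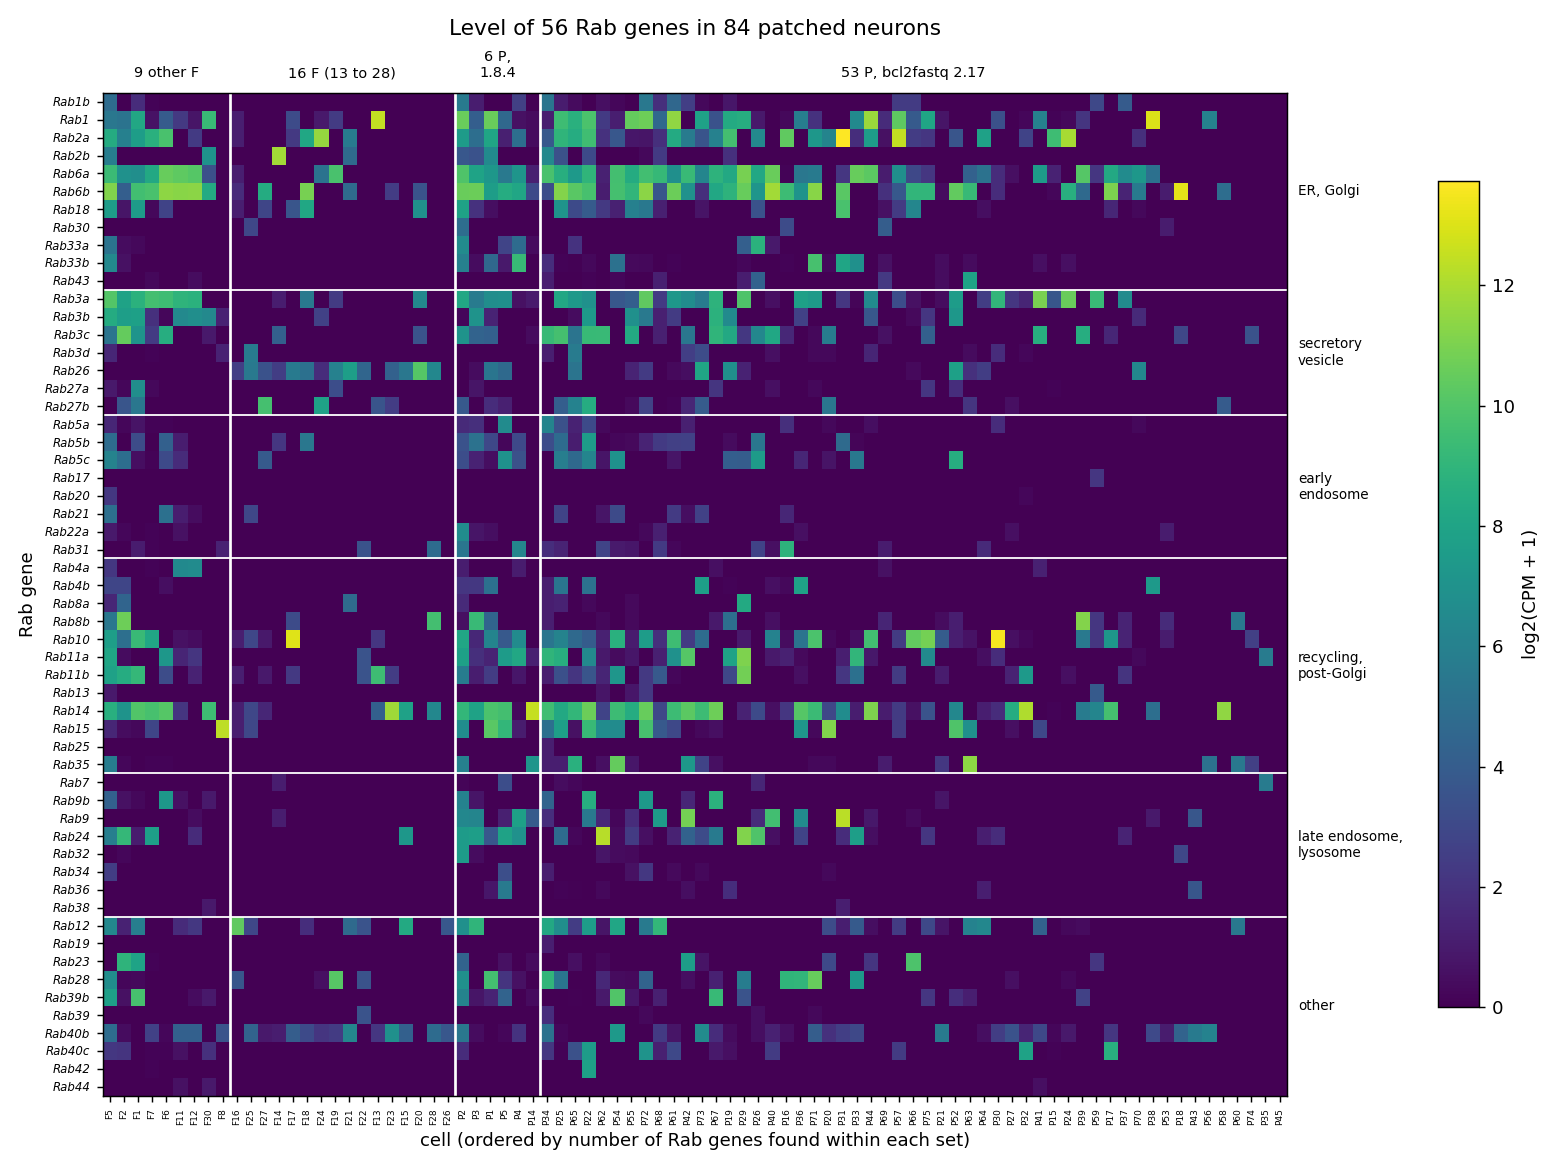
Level of the 56 Rab genes (rows, grouped by compartment) in 84 cells (columns), as log2(CPM + 1); the P cells are split by the bcl2fastq version given for them. Rab3b is filled in all 9 of the other F cells. Rab1, Rab6a, Rab6b, Rab14 and Rab3a form mostly filled rows there and are filled in many P cells. In the 16 F libraries the row that is nearly filled besides Rab40b is Rab26.

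Levels of different members were compared per kilobase of annotated exon, as mean CPM per kb. In P cells Rab2a was at 234 ± 918 (SD, n = 59 cells), Rab6b at 133 ± 275 and Rab1 at 113 ± 322. Rab10, Rab9, Rab24, Rab3a and Rab6a followed, between 92.2 and 73.8. In the other 9 F cells Rab6b was at 265 ± 229.8 (SD, n = 9 cells), Rab3a at 209 ± 162 and Rab6a at 151 ± 158 CPM per kb. The SDs over cells exceed the gaps between neighbours in both orders. On the length of 1 principal transcript the orders changed: Rab14 went from rank 9 to 2 and Rab6b from 2 to 5 in P cells, and Rab3a (299) stood before Rab6b (267) in the 9.

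Members counted as measured when 8 or more cells held a count, and 44 of the 56 did. The other 12 were Rab7 (7 cells), Rab32 (7), Rab13 (5), Rab30 (5), Rab39 (5), Rab44 (3), Rab20, Rab38 and Rab42 (2 each), and Rab17, Rab19 and Rab25 (1 each). Rab7, the late endosomal Rab, had 1 count in 1 F cell and 60 counts in 6 P cells. Rab17 and Rab25 are known from epithelia, and Rab32, Rab38 and Rab44 mainly from pigment, blood and immune cells.

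The level of each measured member was compared between groups by the mean CPM over cells, as log2 of (mean F + 1)/(mean P + 1), and by setting each F cell against each P cell (1475 pairs) and taking the percentage of pairs in which F exceeded P, a tie counting equally for both. The mean was higher in F cells for 18 of 44 members, 40.9%, beside 34.7% of the 11324 measured genes. It was at least 2-fold higher for 7 members, against 18.5% of all genes, and at least 2-fold lower for 18, against 46.4%. The median log2 fold was -0.35 over members and -0.79 over all measured genes. The F cell was higher in over 50% of pairs for 14 members, beside 29.2% of all genes. The Rab shares lay near those of all measured genes.

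Without the 16 libraries, 17 members had a higher mean in F (33.4% of all genes), 13 at least 2-fold (19.3%), and 18 were at least 2-fold lower (45.6%). The sign of the fold turned for 11 members, 5 toward F and 6 toward P, beside 22.5% of all genes. In pairs of the other 9 F cells with P cells the F cell was higher in over 50% for 37 of 44 members, beside 66.2% of all genes. After thinning, 19 members had a higher mean in F (33.5%), 8 at least 2-fold (18.7%), and 14 were at least 2-fold lower (46.9%). With means trimmed by 20% at each end, 9 members were higher in F, beside 18.7% of all genes.

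The libraries had been converted with an older (1.8.4) or a newer version of bcl2fastq, the program that writes out reads. Within the older version alone (3 F, 6 P) 19 members were higher in F, beside 32.8% of all genes, and within the newer alone (22 F, 53 P) 16, beside 32.7%. All 16 of the F libraries set apart above were among the 22 of the newer version. Taking the older version alone therefore also left them out, so the 2 readings are not separate, yet they did not always go together. Rab26 stood at -3.55 within the older version and -3.88 without the 16. Rab2a stood at 2.13 and -1.23. The part of the version in these values was not tested. The mean was higher in F under both versions for 7 members (10.9% of all genes) and lower under both for 15 (41.5%). For 23 of the 44 members a single cell held over 50% of the summed CPM of the higher group, as it did for 65.3% of all genes. Of the 25 members with a 2-fold difference, 16 came under 2-fold or turned sign when 1 cell was left out. This count was not made over all genes, so it cannot be read as particular to Rab genes. Every member was at 0 in at least 1 cell of each group, so the ranges of F and P cells overlapped for all 56.

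**Figure D3:**
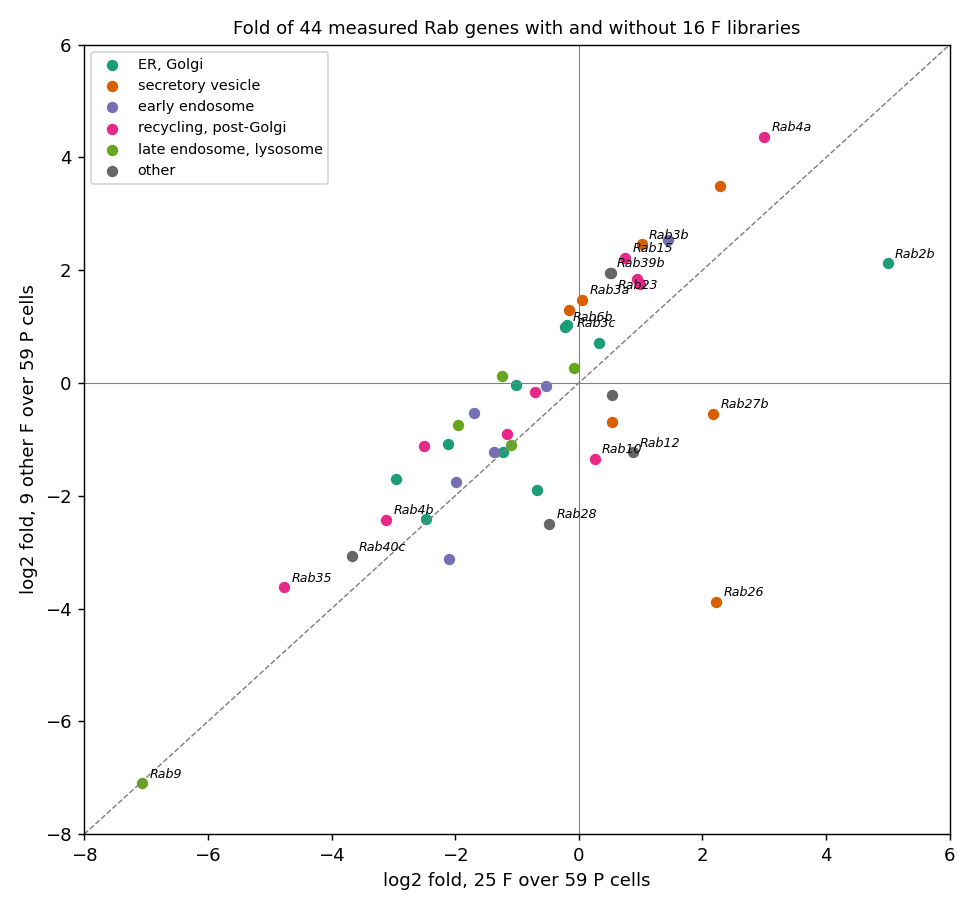
Log2 fold of F over P for the 44 measured Rab genes with all 25 F cells (horizontal) and with the other 9 F cells (vertical), coloured by compartment. Points off the dashed line of equality moved when the 16 F libraries were left out: Rab26 went from 2.22 to -3.88, and Rab3a from 0.05 to 1.48.

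Secretory vesicle Rabs had the highest median fold of the compartments. Of 7 measured members, 6 had a higher mean in F cells, 4 of them at least 2-fold, none was 2-fold lower, and the median log2 fold was 1.02. The same shares over all measured genes were 34.7%, 18.5% and 46.4%. Without the 16 libraries 4 were higher, all at least 2-fold, and 1 was at least 2-fold lower. The shares of all genes were then 33.4%, 19.3% and 45.6%, and the median log2 fold of the 7 was 1.29. Rab3a, Rab3b, Rab3c and Rab27a were the 4 higher ones then, and Rab3d, Rab26 and Rab27b were lower.

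Rab3a, the main Rab of synaptic vesicles, was found in 11 F and 37 P cells. Its CPM had a median of 0 and a maximum of 1084 over F cells, and a median of 3.47 and a maximum of 2008 over P cells. In 7 of the other 9 F cells it lay between 237 and 1084 CPM, and in F8 and F30 it was 0. The mean was 173 ± 307 CPM in F and 167 ± 392 in P cells, 466 ± 361 in the 9 and 8.49 in the 16. The log2 fold was 0.05 with all F cells and 1.48 without the 16, and the share of pairs went from 44.9% to 74.4%. High Rab3a among F cells was thus seen in 7 of the 9, and 12 of the 16 libraries had none.

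Rab3b, a paralog of Rab3a, was found in all 9 of the other F cells, in 1 of the 16 and in 17 of 59 P cells (28.8%, exact Clopper-Pearson 95% interval 17.8 to 42.1%). Its CPM in the 9 ran from 0.166 to 344 with a median of 86.6, and in P cells from 0 to 458 with a median of 0. Only F6, F7 and F8 were under 3 CPM among the 9. The mean over all F cells was 42.5 ± 89.3 CPM and over P cells 20.5 ± 69.6. The log2 fold was 1.02, and 2.47 without the 16. The F cell was higher in 56.6% of all pairs and in 88.5% of pairs with the 9, the highest such share among the 44 members. Left out in turn, F5 moved the log2 fold to 0.53 and P67 to 1.64.

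Rab3c and Rab3d completed the family. Rab3c was found in 8 F and 27 P cells, with highest levels of 1426 and 808 CPM and medians of 0. Its means were 80.3 ± 291 and 89.4 ± 194 CPM (log2 fold -0.15), and F2 alone held 71% of the F sum; without F2 the log2 fold was -1.84. Without the 16 it was 1.29. The share of pairs was 43% with all F cells and 61.6% with the 9. Rab3d was low: 4 F and 11 P cells had a count, with maxima of 51.7 and 52 and means of 2.2 and 1.22 CPM. Its log2 fold was 0.53, or -0.68 without the 16, and its share of pairs 48.7% with all F cells and 56.7% with the 9. Of the summed Rab3 level, Rab3a made up 58.1% in F cells and 60% in P cells, Rab3c 26.9% and 32.2%, and Rab3b 14.3% and 7.36%. All 9 of the other F cells had counts of 2 or more Rab3 genes, as had 28 of 59 P cells.

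**Figure D4:**
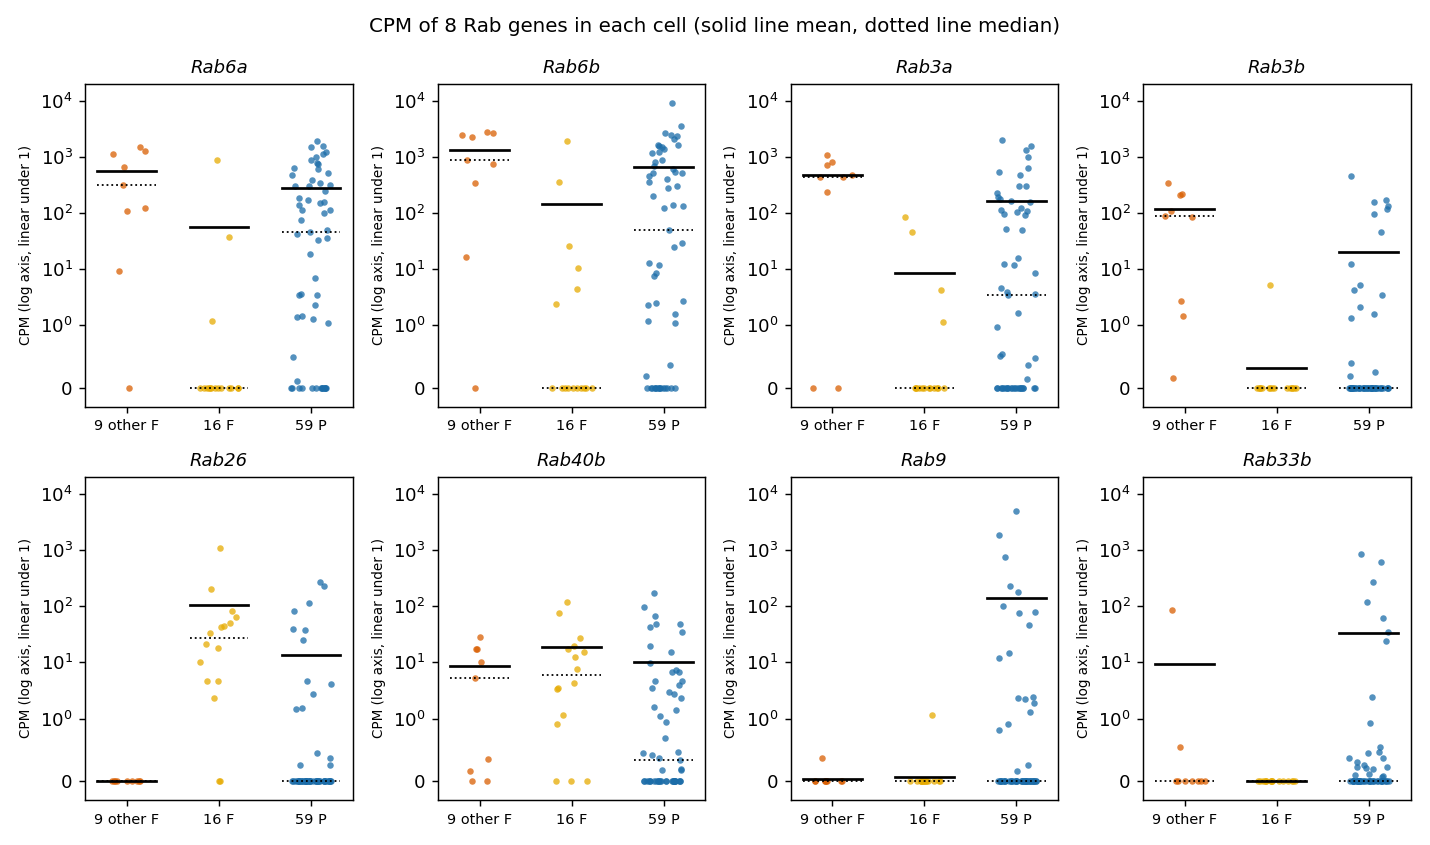
CPM of 8 Rab genes in each cell (vertical axis, log scale, linear under 1), with the other 9 F cells, the 16 F libraries and the 59 P cells side by side, a solid line at the mean and a dotted line at the median. Rab3b is above 0 in all 9 of the other F cells, Rab26 is at 0 in all 9 and above 0 in 14 of the 16, and Rab9 is under 2 CPM in every F cell.

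Rab26, a vesicle Rab linked to autophagy of synaptic vesicles, had the highest share of pairs in favour of F cells, 67.2% (Rab40b was next at 67.1%), and 36.4% in pairs with the other 9. It was found in 14 of the 16 libraries, in 0 of the other 9 F cells and in 16 of 59 P cells. CPM in the 16 ran from 0 to 1102 with a median of 27.1, and in P cells from 0 to 270.4 with a median of 0. The mean was 67.5 ± 220.1 CPM in F and 13.7 ± 48.4 in P cells, with a log2 fold of 2.22. Without the 16 it was -3.88, with pooled counts -1.70, within bcl2fastq 1.8.4 -3.55, and without F20, which held 65.3% of the F sum, 0.79.

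The Rab26 counts of the 16 libraries kept step with those of Klhl18, a gene that marked these libraries. The 14 libraries with Rab26 held 2 to 104 counts of it and 10 to 541 of Klhl18, and their ratio stayed between 0.154 and 0.296. F13 and F26, with 7 and 16 counts of Klhl18, had no Rab26. Spearman's rho over the 16 was 0.96 with Klhl18 and 0.20 with the cell total, given as descriptions. In P cells the 2 genes did not go together: 9 of the 12 P cells with at least 5 Rab26 counts had no Klhl18. No other member had counts in more than 13 of the 16, and Rab40b, the member with 13, had a rho of 0.22 with Klhl18. Traf7, which shares exon bases with Rab26, had 0 to 6 counts in the 16 and a count in 7 of them.

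**Figure D5:**
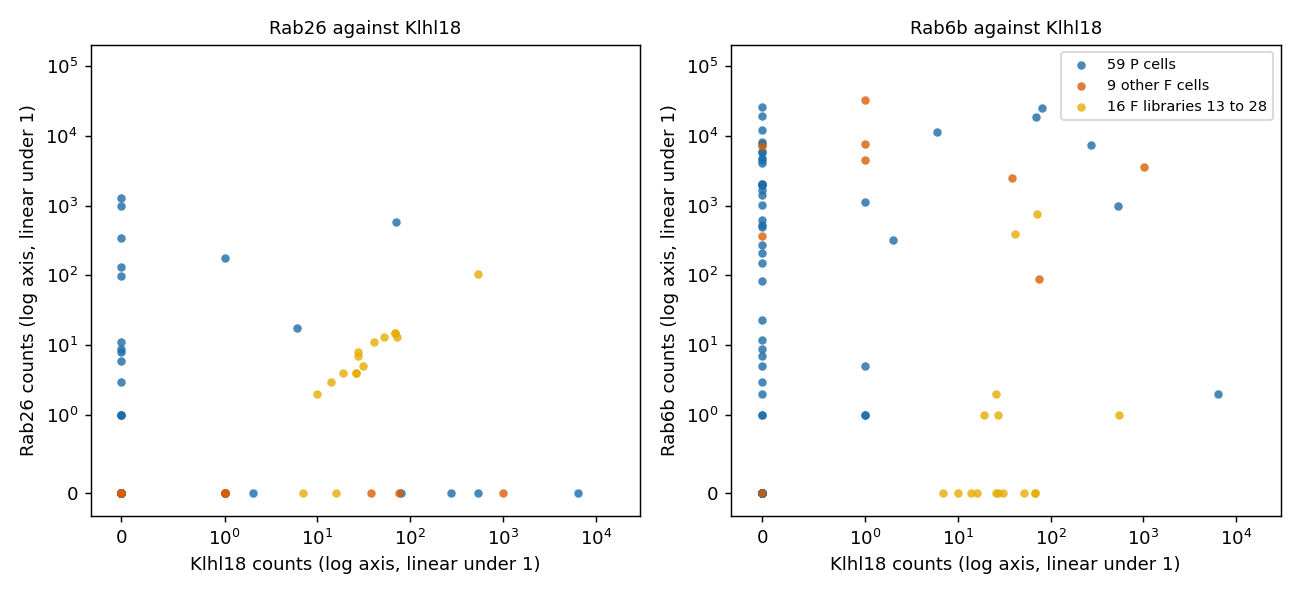
Counts of Rab26 (left) and, for comparison, Rab6b (right) against counts of Klhl18 in each cell, log axes that are linear under 1. In the 16 F libraries Rab26 lies along a line with Klhl18, whereas Rab6b does not, and the P cells with much Rab26 lie mostly at 0 Klhl18.

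Rab27a and Rab27b, which dock secretory granules, rested on few cells. Rab27a was found in 5 F and 7 P cells, with highest levels of 109 and 3.45 CPM. Its means were 4.77 and 0.183 CPM, its share of pairs 54.3% (66.3% with the 9) and its log2 fold 2.29 (3.49 without the 16), and 0.26 without F1, which held 91.7% of the F sum. Rab27b was found in 6 F and 15 P cells, reached 825 CPM in F27 and 357 in P22, and averaged 44.9 and 9.16 CPM, with 50.6% of pairs (49.5% with the 9). Its log2 fold was 2.18 with all F cells, 0.40 without F27 and -0.54 without the 16. Medians of both genes were 0 in both groups.

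Rabs of the endoplasmic reticulum and Golgi were among those with the highest levels. Of 10 measured members, 2 had a higher mean in F cells (1 at least 2-fold), 5 were at least 2-fold lower, and the median log2 fold was -0.84. Over all measured genes the shares were 34.7%, 18.5% and 46.4%. Without the 16 libraries 4 were higher (2 at least 2-fold) and 5 at least 2-fold lower, and the median was -0.56. The shares of all genes were then 33.4%, 19.3% and 45.6%. Rab6a, which acts in transport back to and within the Golgi, was found in 11 F cells (3 of the 16, 8 of the 9) and 45 P cells. Its CPM had a median of 0 and a maximum of 1493 in F cells, and 46.1 and 1899 in P cells. The means were 239.7 ± 455 and 275 ± 443 CPM, and 564 ± 588 in the 9. The log2 fold was -0.20, and 1.03 without the 16, and the share of pairs 37.2% and 68%.

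Rab6b moved as Rab6a did when the 16 were left out. It was found in 14 F cells (6 of the 16, 8 of the 9) and 44 P cells, with a median of 4.52 and a maximum of 2714 CPM in F cells and 49.6 and 9122 in P cells. The means were 574 ± 966 and 667 ± 1384 CPM, and 1335 ± 1156 in the 9, with a median of 869 there. The log2 fold was -0.22, and 1.00 without the 16, and the share of pairs 43.8% and 72.4%. Rab6b made up 70.5% of the summed Rab6 level in F cells, 70.8% in P cells and 70.3% in the 9. Both paralogs were found together in 8 of the 9 and in 38 of 59 P cells.

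Rab1 and Rab2a, which serve traffic between the endoplasmic reticulum and the Golgi, had a count in a higher share of P cells than of all F cells, but in a higher share of the other 9 F cells (88.9% and 66.7%) than of P cells (66.1% and 62.7%). Rab1 was found in 13 F and 39 P cells, with medians of 0.575 and 1.22 CPM and maxima of 5669 and 8131. Its means were 269 ± 1133 and 428 ± 1222 CPM (log2 fold -0.67), with 84.4% of the F sum in F13, without which the log2 fold was -3.27. Rab2a was found in 11 F and 37 P cells, with medians of 0 and 2.66 CPM and maxima of 3043 and 13603. Its means were 212 ± 624 and 499 ± 1958 CPM. The log2 fold was -1.23, the same without the 16 (-1.23), but 0.34 with pooled counts and 2.13 within bcl2fastq 1.8.4, so its direction differed between these readings. The F cell was higher in 40.7% of pairs for Rab1 and 42.9% for Rab2a, and with the 9 in 58% and 58.2%. Without the 16, Rab1 stood at -1.89.

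Rab33b, a Golgi Rab that also binds the autophagy protein Atg16l1, was found in 2 F and 24 of 59 P cells. Its CPM had a median of 0 in both groups and maxima of 85.2 in F5 and 839.8 in P71. The means were 3.43 ± 17 and 33.3 ± 138 CPM, the log2 fold -2.95 (-1.71 without the 16), and the F cell was higher in 34.3% of pairs, the lowest share of any measured member (42.7% with the 9). After thinning the share was 45.6%, with 1 F and 7 P cells holding a count. Rab2b had the highest log2 fold of the 44 members, 4.99, and F14 held 94.6% of the F sum; without F14 it was 0.99. Rab18 stood at 0.32, and Rab1b, Rab33a and Rab43 at -1.01, -2.12 and -2.47.

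Early endosomal Rabs were found in few cells. Of 6 measured members, 1 had a higher mean in F and 4 were at least 2-fold lower, beside 34.7% and 46.4% of all genes. The median log2 fold was -1.53, and -0.88 without the 16. Without them 1 was higher and 3 were at least 2-fold lower, beside 33.4% and 45.6% of all genes. The 3 Rab5 genes, which recruit the early endosomal tethers, were found in 5, 6 and 7 F cells (Rab5a, Rab5b and Rab5c) and in 14, 19 and 18 P cells, and medians were 0 throughout. Rab5a reached 1.83 CPM in F and 98.9 in P cells, with means of 0.114 and 3.43 and a log2 fold of -1.99. Rab5b reached 43.1 and 195 CPM, with means of 4.07 and 6.36 and a log2 fold of -0.54 that turned to 0.30 without P22. Rab5c reached 68.7 and 371 CPM, with means of 4.9 ± 14.8 and 18 ± 58.1 and a log2 fold of -1.69, or -0.54 without the 16. Without them Rab5a stood at -1.75 and Rab5b at -0.05. The shares of pairs for Rab5a, Rab5b and Rab5c were 46.4%, 46.9% and 47.5% with all F cells and 61.2%, 57.8% and 64.9% with the 9, on the other side of 50%.

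Rab5c held the largest part of the summed Rab5 level in both groups, 54% in F and 64.8% in P cells. Rab21, an endosomal Rab that binds integrins, was the member with a higher mean in F: it was found in 5 F and 7 P cells, reached 32.8 and 7.62 CPM, and averaged 2.88 and 0.433 CPM. Its log2 fold was 1.44 (2.53 without the 16), with 54.4% of pairs (66.7% with the 9) and medians of 0. Its counts came from few cells, F5 and F6 holding 34 and 395 of the 433 in F cells. Rab22a and Rab31 stood at -1.37 and -2.10, with P2 holding 95.4% of the P sum of Rab22a and P16 76.2% of that of Rab31.

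Among the 10 measured Rabs of recycling and post-Golgi transport, 5 had a higher mean in F cells, 1 at least 2-fold, and 4 were at least 2-fold lower (median log2 fold -0.22, and -0.53 without the 16). Over all measured genes these shares were 34.7%, 18.5% and 46.4%. Without the 16, 4 were higher, all at least 2-fold, and 4 were at least 2-fold lower, beside 33.4%, 19.3% and 45.6% of all genes. The means of the Rab11 paralogs of the recycling endosome pointed in opposite directions. Rab11a was found in 6 F and 28 P cells, reached 265 and 2197 CPM, and averaged 17.3 ± 59.8 and 103 ± 333 CPM. Its log2 fold was -2.50 (-1.11 without the 16), and the F cell was higher in 38.5% of pairs, or 54.4% with the 9, so that there the pairs did not follow the mean. Rab11b was found in 11 F and 24 P cells, reached 703 and 1766 CPM, and averaged 76.1 ± 189.7 and 38 ± 231 CPM, a log2 fold of 0.98 (1.76 without the 16) with 54.2% of pairs, or 63.5% with the 9. Medians of both were 0 in both groups.

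The signs of both Rab11 folds held within either bcl2fastq version, at -1.2 and -2.89 for Rab11a and at 4.87 and 0.08 for Rab11b. Rab11b made up 81.5% of the summed Rab11 level in F cells, 73.6% in the 9 and 27% in P cells. Single cells weighed heavily on both: P29 held 78.7% of the Rab11b sum and 36.2% of the Rab11a sum of P cells.

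Rab14 and Rab10, which carry cargo from the trans-Golgi and endosomes to the plasma membrane, were found in 14 and 11 F cells and in 44 and 40 P cells. Rab14 had medians of 1.83 and 7.53 CPM and maxima of 3452 and 5850.2, with means of 321 ± 739 and 524 ± 1059. Its log2 fold was -0.71, and -0.16 without the 16. The share of pairs was 41.3% with all F cells and 58.6% with the 9. Rab10 had medians of 0 and 1.42 CPM and maxima of 8534 in F17 and 11862 in P30. Its means were 388 ± 1703 and 324 ± 1566 CPM and its log2 fold 0.26, though the F cell was higher in 37.9% of pairs (51.3% with the 9). Without F17 the log2 fold was -2.72, without P30 1.63, and without the 16 -1.34, so the mean rested on single cells.

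Rab35, which recycles cargo at the plasma membrane, was found in 4 F cells, none of them among the 16, and 19 P cells. It reached 53.1 CPM in F5, which held 58 of the 61 F counts, and 2661 in P63. Its means were 2.14 ± 10.6 and 84.2 ± 392 CPM and its log2 fold -4.76, which stayed at or below -3.70 when any 1 cell was left out and was -3.62 without the 16. The share of pairs was 40.2%, or 51.4% with the 9, and both medians were 0. Rab4a, of fast recycling, had the highest log2 fold of the group, 3.0. It was found in 4 of the 9 and 0 of the 16, and F11 and F12 held most of its F counts, whereas Rab4b stood at -3.11. Rab15 had 99.7% of its F sum in F8, and its log2 fold of 0.75 became -6.22 without that cell. Rab8a and Rab8b, of traffic to the plasma membrane and cilia, stood at -1.16 and 0.94, with P29 holding 98.4% and P39 75.7% of the respective P sums.

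Of the 5 measured Rabs of late endosomes, lysosomes and related organelles, none had a higher mean in F and 4 were at least 2-fold lower, beside 34.7% and 46.4% of all genes, with a median log2 fold of -1.24. Without the 16 libraries 2 were higher and 2 at least 2-fold lower, beside 33.4% and 45.6% of all genes, with a median of -0.74. Rab9, which returns mannose 6-phosphate receptors from late endosomes to the Golgi, was the member with the lowest fold of the 44. It had 2 counts in 2 of 25 F cells and 13249 in 20 of 59 P cells (8%, exact 95% interval 0.984 to 26%, against 33.9%, 22.1 to 47.4%).

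The highest Rab9 level was 1.17 CPM in an F cell and 4996 in a P cell, P31, and both medians were 0. The means were 0.0614 ± 0.242 and 141 ± 693 CPM, a log2 fold of -7.07, with 36.1% of pairs (37.1% with the 9). It was -7.09 without the 16, -6.06 within bcl2fastq 1.8.4, -7.14 within the newer version, and -5.78 without P31, which held 60% of the P sum. The F mean lay under the pseudocount of 1 CPM, and the size of the fold depended on the setting. With a pseudocount of 10 CPM it was -3.91, with the mean of log2 values -1.48 and with trimmed means -0.42. After thinning, 0 of 22 F and 11 of 53 P cells had a count. The mean was lower in F in each of these readings, although most P cells had no Rab9 either. Its paralog Rab9b was found in 6 F cells, all among the 9, and 8 P cells (log2 fold -1.24, and 0.12 without the 16).

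Rab24, known from autophagy, was found in 6 F and 26 P cells with a log2 fold of -1.95, and P62 held 52.6% of its P sum. Rab36 had no count in 25 F cells (exact 95% interval 0 to 13.7% of cells with a count) and 303 counts in 9 P cells. Rab34 stood at -0.08. Rab7, under the detection minimum and described above, averaged 0.0466 CPM in F and 1.04 in P cells. It reached 1.17 CPM in F14 and 50.5 in P35, and both medians were 0. Its log2 fold was -0.96, or -1.03 without the 16 and -0.18 without P35. The share of pairs was 46.9%, or 44.9% with the 9.

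The remaining members have more varied roles. Of 6 measured, 4 had a higher mean in F cells, none at least 2-fold, and 1 was at least 2-fold lower, with a median log2 fold of 0.51, and -0.71 without the 16. Shares over all measured genes were 34.7%, 18.5% and 46.4%. Without the 16, 2 were higher, both at least 2-fold, and 3 were at least 2-fold lower, beside 33.4%, 19.3% and 45.6% of all genes. Rab40b, which carries a SOCS box that binds a ubiquitin ligase, was the member found in most F cells. It had a count in 20 of 25 (80%, exact 95% interval 59.3 to 93.2%), 13 of the 16 and 7 of the 9, and in 33 of 59 P cells (55.9%, 42.4 to 68.8%). Median CPM was 5.29 in F and 0.342 in P cells, with maxima of 118 and 171.

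The Rab40b means were 15.5 ± 26.8 and 10.3 ± 28 CPM, a log2 fold of 0.54, and the F cell was higher in 67.1% of pairs, or 62.5% with the 9. The counts were low: 12 of the 20 F cells that had it held fewer than 5. Pooled counts gave -1.14, bcl2fastq 1.8.4 alone -2.88 and the comparison without the 16 -0.21, all of them opposite to the pairs and to the mean over all F cells. Rab40c, its paralog, was at 0 in all 16 and stood at -3.67. Rab40b made up 97.4% of the summed level of both in F cells, 88.3% in the 9 and 37.6% in P cells.

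Rab12, which sends receptors from recycling to degradation, was found in 12 F and 23 P cells and reached 1317 CPM in F16 and 550.3 in P68. Its means were 74.1 ± 267 and 40 ± 111 CPM, with a log2 fold of 0.87, or -1.22 without the 16 and -0.81 without F16 alone. The share of pairs was 54.5%, or 56.5% with the 9, and both medians were 0. Rab39b, in which human variants cause intellectual disability, and Rab23, an inhibitor of Hedgehog signalling, stood at 0.50 and 0.51 with 0 counts in the 16, and at 1.95 and 1.96 without them. Each rested on few F cells: F1 held 79.5% of the Rab39b sum and F2 65.5% of the Rab23 sum. Rab28, a ciliary Rab, stood at -0.48, and -3.50 without F19.

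The machinery that loads, prenylates and switches off Rab proteins was examined as lists of genes, read against the same shares of all genes. Of 12 measured chaperones and prenylation enzymes, 4 had a higher mean in F, 3 at least 2-fold, and 6 were at least 2-fold lower (median log2 fold -1.23). Of 41 exchange factors, 12 were higher, 5 at least 2-fold, and 16 at least 2-fold lower (-0.72). Of 30 GTPase-activating proteins, 12 were higher, 5 at least 2-fold, and 12 at least 2-fold lower (-0.84), and of 54 effectors 20, 9 and 26 (-0.89). Over all measured genes the shares were 34.7%, 18.5% and 46.4%, and the median log2 fold was -0.79. Without the 16 libraries the same counts were 6, 4 and 6 for the first list and 13, 6 and 16 for exchange factors. They were 12, 5 and 12 for GTPase-activating proteins and 21, 14 and 24 for effectors, beside 33.4%, 19.3% and 45.6% of all genes. The 4 list medians were then -0.76, -0.70, -0.68 and -0.52, beside -0.75.

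Trappc5, a subunit of the TRAPP complexes that activate Rab1, had the pair share farthest toward F cells among the pathway genes named. It was found in 16 F cells (11 of the 16, 5 of the 9) and 11 P cells, with means of 53 and 4.08 CPM. The log2 fold was 3.41, 2.22 without the 16 and -1.49 within bcl2fastq 1.8.4, and the F cell was higher in 75.5% of pairs. Dennd4a, a Rab10 exchange factor, stood at 3.49, 2.78 without F11 and -2.55 within bcl2fastq 1.8.4. Dennd2c stood at 1.21, but at -1.66 without F13.

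Gapvd1, Madd and Dennd5a were found in a larger share of P cells than of all F cells, though in 5, 6 and 7 of the other 9. Gapvd1, which acts on Rab5, was found in 6 F and 31 P cells (log2 fold -4.24). Madd, which acts on Rab3 and Rab27, was found in 9 and 33 (-2.81), and Dennd5a in 8 and 34 (-2.31). Without the 16 these stood at -2.86, -1.38 and -1.74. Within bcl2fastq 1.8.4 Gapvd1 turned to 2.14.

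Among GTPase-activating proteins, Rabgap1l was found in 5 F and 36 P cells, with a log2 fold of -1.38 and the F cell higher in 30% of pairs, yet 0.08 without the 16. Tbc1d4, which acts on Rab10 in insulin-regulated traffic, was found in 7 of the 9 and 0 of the 16, with means of 1.97 and 0.123 CPM and a log2 fold of 1.4, or 2.52 without the 16. Tbc1d5, which acts on Rab7, stood at 2.66, and Usp6nl, which acts on Rab5, at 2.35 (-0.47 without F30). Tbc1d8 and Tbc1d12 stood at -5.01 and -1.47, the latter 0.09 without P62.

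Of the effectors, Myo5a, a myosin that carries Rab-bound vesicles, was found in 10 F and 42 P cells, with means of 210.0 and 585 CPM and a log2 fold of -1.47, but 1.69 within bcl2fastq 1.8.4 and -0.37 without the 16. Osbpl1a, a Rab7 effector, stood at -2.72 and Rufy2 at -5.61, and without the 16 at -1.37 and -5.03. Wdr44, Plekhm1 and Zfyve20, which bind Rab11, Rab7 and Rab5, stood at 2.54, 2.27 and 2.23. Wdr44 turned to -0.47 without F24 and to -2.80 without the 16. Zfyve20 turned to -1.56 without F7, and stood at 3.69 without the 16. Plekhm1 was found in 8 F cells (7 of the 16, 1 of the 9) and 22 P cells. It stood at 1.35 without F1 and 2.82 without the 16.

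Of the genes that prenylate and escort Rabs, Chm, the escort protein that presents Rabs for prenylation, was found in 9 F and 25 P cells with a log2 fold of -2.78, and -4.51 without the 16. Rabggta, a subunit of the Rab prenylating enzyme, stood at -4.87, and -1.14 without P71, and Zmpste24, a protease of prenylated proteins, at -1.63. Fnta, a subunit of related prenyltransferases, and Rabif, which binds nucleotide-free Rabs, stood at 2.23 and 1.61, and both turned without F6, to -0.09 and -2.62.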

How the data were processed

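The samples were 84 single neurons, and groups (25 F, 59 P) came from the titles. Values in the deposited table are raw read counts, 1 row per gene symbol. The submitters' processing notes name STAR 2.4.0, the build mm10 and, depending on the sample, bcl2fastq 1.8.4 or 2.17. How reads were counted, and with which annotation and strand setting, was not given in the sources used here. Libraries used a stranded kit and aRNA amplification, per the labels' protocols.

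CPM is a count per 1000000 counts of its cell, and was averaged over cells. The fold has a pseudocount of 1 CPM. Genes with a count in fewer than 8 cells were not compared, apart from the values given for Rab7. Thinning drew 86539 counts per cell without replacement, the 10th percentile of totals, and left out 3 F and 6 P cells. Intervals on shares of cells are exact Clopper-Pearson 95% intervals. They cover the draw of cells only. The computation of the fold was checked on simulated counts, with known folds given to genes of higher mean level. There the median simulated fold was subtracted first, which was not done for the folds given here. The check therefore does not cover an offset shared by all genes, or members held mostly by single cells. Versions were Python 3.11.15, pandas 2.3.3, scipy 1.17.1, and edgeR 4.0.16 for TMMwsp factors.

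The members, lists and the 16 F libraries were chosen with earlier results of these data known. Full values were given for the 8 members found in most cells, the 6 in each direction with the pair share farthest from 50%, and Rab3, Rab5, Rab7, Rab11 and Rab27 genes. Of each pathway list, up to 3 genes in each direction among those with a 2-fold difference were named. Other members, and cells singled out, were named after their values were seen. Exons and coding tails came from GENCODE vM21 on GRCm38. All 56 members matched, Rab1 as Rab1a through its RefSeq synonym. Alternatives were pooled counts, trimmed means, the mean of log2 values, TMMwsp, totals without the ribosomal RNA gene Rn45s, a pseudocount of 10 CPM, other low-count limits, thinning, each bcl2fastq version, and cells left out.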

Additional observations from a re-analysis of the deposited data

How the results depend on the processing

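No paired analysis was possible because the numbers in the titles name cells and the results come from no test. The count of 18 members higher in F was 9 with trimmed means. It ran from 15 to 20 when 1 cell was left out, and the median log2 fold from -0.58 to -0.16. The median number of Rab genes found was 6 lower in F than in P cells, 0.5 higher within bcl2fastq 1.8.4, and 6 higher without the 16 F libraries. The log2 fold of the summed Rab level was -0.30, from -0.40 to -0.20 without 1 cell, 0.32 without the 16, 0.47 within 1.8.4 and 0.18 with pooled counts.

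Among the 25 members with full values, those with at least a 2-fold difference that changed direction were Rab2a, Rab27b and Rab26. Rab2a turned to 0.34 with pooled counts and 2.13 within 1.8.4. Rab27b turned to -0.54 without the 16. Rab26 turned to -1.70 with pooled counts, -3.55 within 1.8.4, -3.88 without the 16 and -0.13 without libraries under 100000 counts. The 1.8.4 reading also held none of the 16, so these alternatives are not separate, though Rab2a stood at -1.23 without the 16. The cause was not tested. Leaving out libraries under 100000 counts, and averaging F11 and F12, whose values were close for several members, were chosen after seeing the data. The averaging gave 17 members higher in F. The size of a fold depended on the setting too, also where its direction did not turn. With trimmed means Rab27a, Rab5a, Rab33b and Rab35, among others, came under 2-fold, at 0, -0.03, -0.11 and -0.20. With plain means they stood at 2.29, -1.99, -2.95 and -4.76. Rab3b, Rab11a and Rab26 stayed at 2-fold or more with trimmed means, at 2.67, -2.34 and 3.61. Depth limits members with a few counts, for which absence in a cell cannot be told from loss.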
